A study of Drosophila melanogaster with 56 samples.

Results

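The step from 1 h to 2 h after egg-laying takes the *Drosophila melanogaster* embryo out of the cleavage divisions and into the syncytial blastoderm, and it was described here by comparing the 4 RNA-Seq samples labelled 2 h with the 4 labelled 1 h, which are 8 of the 56 samples of a developmental time course with 14 time points. Both groups were whole embryos of the wild-type strain Oregon R, collected by a timed egg-laying and aged, with no mutant allele, transgene or treatment in either. Each library pools whole embryos of one laying window, so it averages over their exact ages and over all nuclei and cells. PolyA-selected RNA was sequenced, and the deposited values are reads counted per gene. Replicates carry only a number in the labels, so p-values measure the spread between these samples, and whether that spread comes from separate collections is not stated in the labels.

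The embryo begins life on mRNAs that the mother loaded into the egg. During cleavage the nuclei divide in a common cytoplasm with almost no transcription, and the maternal proteins of the pan gu kinase pathway and the RNA-binding protein Smaug (Smg) start the decay of a part of the maternal mRNAs. As the nuclei reach the surface, the pioneer factor Zelda (Zld) opens the first zygotic genes, many of which are short and have no intron. These 2 processes together form the maternal-to-zygotic transition (MZT). In bulk libraries of polyadenylated RNA, fewer cells of a type and less RNA per cell cannot be told apart, nor can loss of a transcript and shortening of its polyA tail.

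Genes listed for expression in the blastoderm were mostly higher at 2 h, and some lists of maternally supplied genes were lower in part. Of 74 tested genes from lists of patterning, sex-determining, cellularization and other first-wave genes, 64 were called higher at 2 h and none lower, beside 10.9% of all genes called higher, and the other 10, among them *hb*, *cad* and *Sxl*, were not called. On the other side 15 of 25 DNA replication genes, 9 of 12 glycolysis genes and 11 of 24 axis and germ plasm genes were called lower, beside 24.8% of all genes, while 1 glycolysis gene and 1 axis gene were called higher. With normalization factors computed over all 56 samples, 13, 6 and 9 genes of these lists were called lower. Other lists lay near the share of all genes, among them maternal clearance (8 of 24) and mitochondrial ribosomal proteins (16 of 70). Ribosomal protein mRNAs and the mRNAs of Zld and Smg were not called in either direction. All lists were chosen with earlier results of these data known, so their direction is not independent evidence.

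Libraries of 2 h held 16829534 to 18146759 counts on genes and those of 1 h held 15995007 to 19251866. All levels are given in CPM, the count of a gene scaled to the library's total on genes, so that 3 counts, the number that a reading of 0 still allows, correspond to 0.165 to 0.178 CPM at 2 h and 0.156 to 0.188 CPM at 1 h, counting error only. Between 11348 and 11409 genes had at least 1 count at 2 h, against 10248 to 10786 at 1 h, and the ranges did not overlap. Pearson correlations of log2(CPM + 1) across genes, which are not independent replicates, were 0.979 to 0.996 within 2 h, 0.986 to 0.993 within 1 h and 0.861 to 0.922 between the time points.

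Some libraries stood apart. Replicate 3 of 2 h differed from its 3 partners by a chi-square of 95.9 to 125 per degree of freedom over genes, whereas the other pairs of 2 h differed by 4.84 to 9.41 and the pairs of 1 h by 21.1 to 84.4. In the same library the mitochondrial transcript *mt:CoI*, which encodes a subunit of cytochrome c oxidase, was low, and it was also low in replicate 4 of 1 h, with 7187, 6927, 2166 and 6396 CPM at 2 h, against 4149.6, 4896, 4445 and 1339 CPM at 1 h. Without replicate 3 of 2 h, 1085 genes were called higher and 2063 lower, against 912 and 2070 with all libraries.

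Markers of much older embryos were also detected at a low level. The summed level of 151 genes of cuticle, sarcomere and neurons was 1927, 1088, 1085 and 1047 CPM at 2 h, against 824, 576, 452 and 462 CPM at 1 h. The groups did not overlap, and their ratio was 2.22 with a p of 0.0286 in an exact two-sided permutation test over samples, the smallest that 4 against 4 allows. These sums were 2.80% and 1.26% of the level at 20 h, and replicate 1 of 2 h held the most. Leaving that replicate out gave a ratio of 1.86 and an exact permutation p of 0.0571. Yolk protein and chorion genes, which follicle cells and fat body of the mother express, were at or near 0, with no count in any of the 8 libraries for 9 of the 13, and none of the 13 passed the filter on low counts. Of the members tested, 12 of 44 cuticle, 10 of 14 sarcomere and 5 of 12 neuronal genes were called higher and none lower. Over all genes tested, 10.9% were called higher and 24.8% lower. Without replicate 1 of 2 h the counts called higher were 8, 2 and 0. The neuronal count was also 0 without replicate 4 of 2 h and 1 without replicate 2 of 2 h, and the cuticle count was 26 without replicate 1 of 1 h. Of the 123 cuticle genes listed, 19 had no count in any of the 8 libraries. Sarcomere genes held most of the sum, 848 ± 282 CPM at 2 h and 341 ± 97.2 CPM at 1 h (SD, n = 4 each), and among them the muscle myosin gene *Mhc* had 223, 140.2, 73.9 and 117 CPM at 2 h, against 67.9, 55.8, 39.7 and 33.8 CPM at 1 h.

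In view of these markers, genes whose mean CPM at 3 and 4 h was under 10% of that at 18 and 20 h were counted apart as genes of the late-embryo type. The threshold was set after the data were seen. Of 1238 such genes tested, 402 (32.5%) were called higher at 2 h and 153 lower, beside 10.9% and 24.8% of all genes. Their median log2 fold change was 1.06. They made up 44.1% of all genes called higher, yet none of them reached a log2 fold change of 3 and only 16 reached 2. Single libraries moved this share. Without replicate 1 of 2 h, 153 genes of the type were called higher (25.7% of such calls), and without replicate 1 or 2 of 1 h, 685 (52.8%) or 688 (49.9%). Under scaling on ribosomal protein genes 41 were called higher. The part of late-embryo RNA in the comparison was not tested beyond these values.

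In all, 8342 genes passed the filter, and a call needed an adjusted p below 0.05 and a change of 1 or more on the log2 scale, in either direction, in edgeR's quasi-likelihood test. At 2 h, 912 genes (10.9% of those tested) were called higher and 2070 genes (24.8%) lower. On this scale large changes were more frequent on the lower side, where 298 genes changed by a log2 of 3 or more, against 169 on the higher side. At the very end the order turned round, with 46 lower and 71 higher genes beyond a log2 of 4. Without replicate 1 of 2 h, 596 genes were called higher and 2088 lower, and without replicate 2 of 1 h, 1380 were called higher and 2050 lower. The replicates of 2 h and 1 h did not overlap for 2062 of the genes called lower and for 751 of those called higher. Calls and overlap rest on the same values, so these counts are no separate support for the calls. The share without overlap over all genes tested is not given here.

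The genes called higher were mostly rare transcripts. Their median mean count over the 8 libraries was 49, and 604 of 912 had a mean under 100, whereas the genes called lower had a median mean count of 723. Among the genes called higher that were not of the late-embryo type, the median level at 0, 1, 2 and 3 h was 2.93, 1.15, 5.73 and 35.5 CPM. Of these 510 genes, 462 (90.6%) had a higher mean at 3 h than at 2 h. The late-embryo type is itself defined by a low level at 3 and 4 h, so leaving it out favours a high level at 3 h. Over all 912 genes called higher, 547 (60.0%) had a higher mean at 3 h than at 2 h. For all 2070 genes called lower, with the late-embryo type included, the medians at the same times were 71.8, 62.6, 15.8 and 23.2 CPM.

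**Figure D1:**
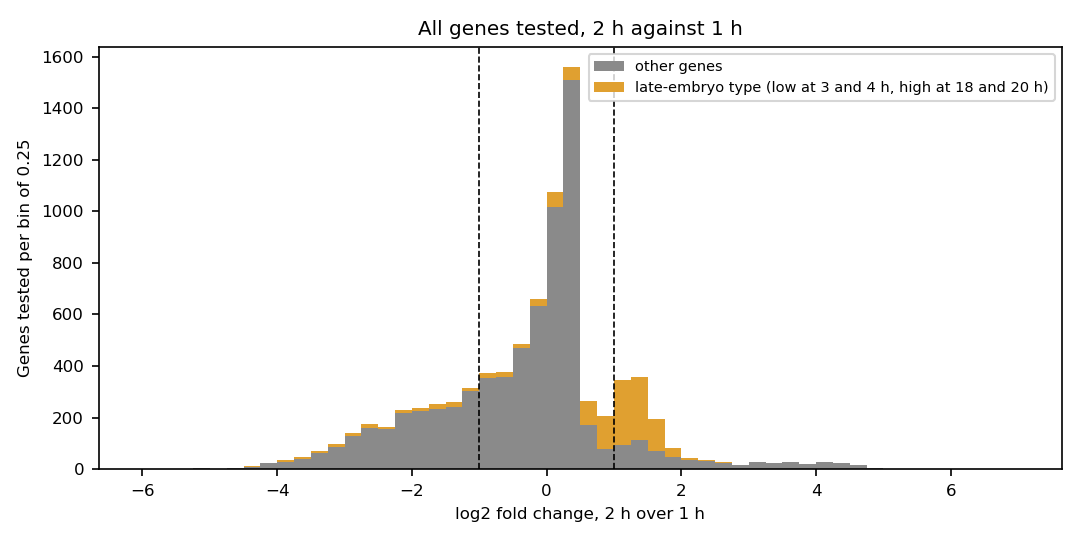
Histogram of log2 fold changes, 2 h over 1 h, for the 8342 genes tested, in bins of 0.25, with genes of the late-embryo type stacked on the other genes and dashed lines at the call threshold of 1 in either direction. The right shoulder near 1 holds many genes of the late-embryo type, whose median is 1.06. The left tail reaches -5.62, and the right tail reaches 6.62 in a gene not of that type.

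How many genes count as higher depends on where no change lies. With the normalization factors of the 8 libraries the median gene had a log2 fold change of 0.06 and 30.6% of calls were higher. With factors computed over all 56 samples the median became 0.60 and 54.1% of calls were higher, 1713 genes against 1454 lower, and 65.0% were higher where all 56 samples entered the fit, 2712 genes against 1460. Scaling on the ribosomal protein genes, an alternative added after the data were seen, moved the median to -0.26 and left 12.3% of calls higher, 358 genes against 2544. Every log2 fold change below is therefore relative to the normalization factors of these 8 libraries, under which the median gene stood at 0.06. This includes those given in parentheses or as the size of a rise or fall without another unit. On the scale of the whole time course signed values would be about 0.5 higher, so rises would be larger and falls smaller. Polyadenylated RNA per embryo was not measured here, so absolute gain or loss cannot be read from any of these scales.

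The 12 largest rises among well-counted genes included several known for roles in the blastoderm. By rule these were the highest log2 fold changes among 265 called genes that averaged 100 counts or more and whose replicates did not overlap. They were *CG7271*, *term*, *Elba1*, *Elba3*, *bnk*, *bard*, *CG43184*, *halo*, *CG6885*, *dunk*, *Z600* and *CG14014*. Their log2 fold changes were between 4.49 and 4.77, with SE of 0.48 to 0.65 and adjusted p between 1.61e-05 and 0.00016 by edgeR. In every setting in which they were tested, these 12 stayed called higher. They had been picked for changes far beyond the threshold, so this is no separate support.

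The greatest rise was that of *CG7271* (3L:18588759-18590165, plus strand, 1 exon without intron, BDGP6). Its level was 176, 175, 302 and 218 CPM at 2 h, against 1.72, 11.2, 5.25 and 11.2 CPM at 1 h, a gap of more than 10-fold between the lowest library of 2 h and the highest of 1 h (log2 fold change 4.77, SE 0.49, adjusted p = 1.61e-05 by edgeR). On the same arm *term* (3L:18592303-18593771, minus strand) had 108, 103, 185 and 132 CPM at 2 h, against 0.941, 7.67, 3.12 and 6.25 CPM at 1 h (log2 fold change 4.75). Both genes had their highest level in replicate 3 of 2 h and their lowest in replicate 1 of 1 h.

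Among the 12 genes, 2 encode parts of ELBA, a DNA-binding complex that keeps the Bithorax complex insulator active in the early embryo. *Elba1* (2L:4683052-4684461, minus strand) had 398, 405, 625 and 421 CPM at 2 h, against 2.04, 28.0, 11.6 and 22.3 CPM at 1 h (log2 fold change 4.72, SE 0.62, adjusted p = 0.000105 by edgeR). *Elba3* (2L:4687511-4688956, plus strand) had 479.6, 481, 697 and 509 CPM at 2 h, against 2.25, 35.9, 13.1 and 26.4 CPM at 1 h (log2 fold change 4.67, SE 0.65, adjusted p = 0.00016 by edgeR). In these genes even replicate 2, the highest of 1 h, stayed far below the lowest library of 2 h. *Elba2*, which encodes the third subunit, was already present at 1 h, with 493, 488, 845 and 577 CPM at 2 h, against 158, 193, 178 and 249.6 CPM at 1 h, and its rise was smaller (log2 fold change 1.49, SE 0.19, adjusted p = 9.03e-05 by edgeR). The replicates of *Elba2* did not overlap either.

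Another 4 of the 12 genes are known from around the stage of cellularization, in which membrane grows in between the surface nuclei. Of these, *bnk* and *dunk* act at the growing membrane front, and *halo* and *Z600* have other roles. *bnk* (3R:31193362-31194389, plus strand), which holds back the constriction of the actomyosin network, had 327, 336, 596 and 391 CPM at 2 h, against 2.14, 27.3, 8.83 and 21.8 CPM at 1 h (log2 fold change 4.65, SE 0.64, adjusted p = 0.000144 by edgeR). *dunk*, which acts on myosin at the same front, had 302, 302, 512 and 351 CPM at 2 h, against 2.67, 27.0, 8.93 and 20.0 CPM at 1 h (log2 fold change 4.51). *halo* (2L:1517533-1518148, minus strand), which directs lipid droplets along microtubules at this stage, had 241, 239, 501 and 321 CPM at 2 h, against 2.404, 20.5, 8.57 and 18.9 CPM at 1 h (log2 fold change 4.56, SE 0.58, adjusted p = 7.96e-05 by edgeR). *Z600* (3L:15509061-15509513, plus strand), known as frühstart and an inhibitor of mitosis that helps to end the cleavage cycles, had 90.3, 83.7, 215 and 134 CPM at 2 h, against 0.888, 8.10, 4.52 and 7.63 CPM at 1 h (log2 fold change 4.50, SE 0.55, adjusted p = 6.2e-05 by edgeR). In each of the 4 genes the lowest library of 2 h was at least 10 times above the highest of 1 h. The annotation places *bnk* opposite *mesh*, *Elba1* opposite *CG11929*, and *dunk* and *Z600* within spans of *CG42748* and *gdl* on their own strand, and the strand setting of the counting is not stated, so reads could be shared there.

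Of 8 cellularization genes listed, 7 were tested and 6 were called higher, with a median log2 fold change of 4.18 beside 0.06 over all genes. For this list and the lists of patterning and first-wave genes below, the background is the 10.9% of all genes tested that were called higher. *nullo*, which keeps the basal junctions of the furrow, had 98.6, 98.7, 115 and 84.3 CPM at 2 h, against 0.732, 10.3, 2.91 and 6.00 CPM at 1 h (log2 fold change 4.18, SE 0.54, adjusted p = 9.18e-05 by edgeR). *slam*, needed for membrane growth, differed in that it was already abundant before, with 1543, 1469, 2391 and 2004 CPM at 2 h, against 289.7, 419, 326 and 359 CPM at 1 h (log2 fold change 2.27, SE 0.18, adjusted p = 2.2e-06 by edgeR). *trbl*, which blocks the string phosphatase, rose by 1.29 on the log2 scale. The remaining gene tested, *dnk*, was not called (-0.77). It encodes a deoxyribonucleoside kinase and is not a cellularization gene, but is counted here because the list was not changed after the values were seen. *Sry-alpha* had no count in any of the 8 libraries.

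**Figure D2:**
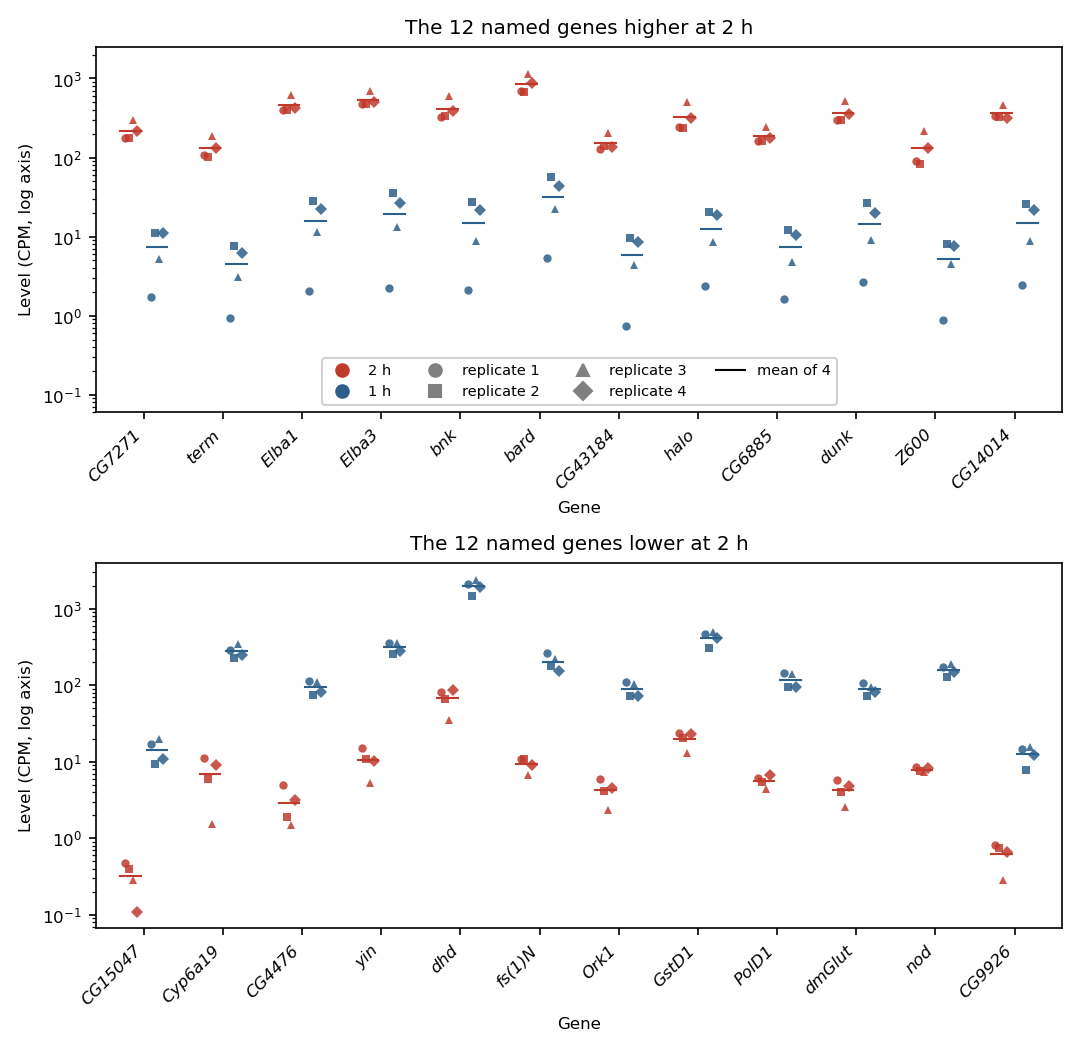
Levels in CPM, on log axes, of the 12 named genes higher at 2 h (top) and the 12 lower at 2 h (bottom), with 2 h to the left of 1 h for each gene, a symbol per replicate and a line at the mean of 4. No gene overlaps between the time points, which the rule for naming required. Replicate 3 of 2 h is the highest of 2 h for all 12 rises and the lowest for 11 of the 12 falls, and replicate 1 of 1 h is the lowest of 1 h for all 12 rises.

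The X-chromosome counting genes, whose dose sets the sex of the embryo, were higher as a group. Of 5 listed, 4 were called higher and none lower, with a median log2 fold change of 3.59. *sisA* (X:11321579-11322357, minus strand) had 17.8, 18.4, 32.1 and 23.0 CPM at 2 h, against 1.15, 4.05, 1.09 and 4.75 CPM at 1 h (log2 fold change 2.93, SE 0.47, adjusted p = 0.00043 by edgeR). *sc*, also called sisB, had 79.7, 84.3, 81.4 and 69.9 CPM at 2 h, against 1.15, 9.96, 2.65 and 6.44 CPM at 1 h, a log2 fold change of 3.83. *run* had 33.0, 35.0, 43.4 and 33.7 CPM at 2 h, against 1.72, 4.15, 2.03 and 3.06 CPM at 1 h (log2 fold change 3.59, SE 0.25, adjusted p = 1.14e-06 by edgeR), and its replicates lay close together at both times. *upd1*, a ligand of the JAK/STAT pathway, rose by 4.14 on the log2 scale. Their target *Sxl*, the switch gene of female development, also has a maternal transcript and had 105, 105, 164 and 174 CPM at 2 h, against 135, 123, 158 and 108 CPM at 1 h, so that the groups overlapped and no call was made (log2 fold change -0.08, adjusted p = 0.723 by edgeR).

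Gap genes, the first zygotic readers of the maternal gradients along the head-to-tail axis, were called higher in 12 of 14 cases, with none lower and a median of 3.62. *Kr* (2R:25226611-25231394, plus strand) had 73.6, 77.0, 136 and 104 CPM at 2 h, against 3.76, 7.78, 4.10 and 5.44 CPM at 1 h (log2 fold change 4.07, SE 0.28, adjusted p = 1.01e-06 by edgeR). *hkb*, a terminal gap gene, had 20.3, 23.5, 38.5 and 29.3 CPM at 2 h, against 0.784, 2.45, 0.571 and 0.75 CPM at 1 h (log2 fold change 4.45, SE 0.44, adjusted p = 1.31e-05 by edgeR), where replicate 2 was the highest of 1 h. *tll*, *gt* and *kni* rose by 4.33, 4.27 and 4.19 on the log2 scale. The 2 exceptions were genes that the mother also supplies. *hb* had 274, 280.0, 347 and 298 CPM at 2 h, against 267, 242, 280.0 and 235 CPM at 1 h (log2 fold change 0.08), with 1 library of 1 h above the lowest of 2 h. *cad* had 167, 179, 190.1 and 181 CPM at 2 h, against 262, 269, 289 and 295 CPM at 1 h, lower in every library of 2 h, but its log2 fold change of -0.78 did not reach the threshold. Under scaling on ribosomal protein genes *cad* was called lower.

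All 9 pair-rule genes were called higher, with a median of 3.70. These genes later form the stripes of alternate segments. *ftz* (3R:6864324-6866244, plus strand) had 38.4, 40.2, 83.5 and 48.2 CPM at 2 h, against 1.25, 3.52, 1.51 and 3.38 CPM at 1 h (log2 fold change 4.32, SE 0.39, adjusted p = 6.23e-06 by edgeR). *eve* had 15.7, 16.9, 33.4 and 20.4 CPM at 2 h, against 0.784, 2.08, 0.675 and 1.38 CPM at 1 h (log2 fold change 3.99, SE 0.39, adjusted p = 1.29e-05 by edgeR), and *prd* rose by 4.17. The pair-rule gene *opa*, listed here with the activators, was still scarce at 2 h, with 12.0, 8.21, 23.7 and 10.3 CPM at 2 h, against 1.88, 1.86, 1.09 and 1.44 CPM at 1 h (log2 fold change 2.96, SE 0.37, adjusted p = 7.61e-05 by edgeR).

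Among 27 genes of the dorsal-ventral axis 25 were called higher, none lower, and the median was 3.35. Genes from both poles of the axis took part. On the dorsal side *zen*, the homeobox gene of the amnioserosa, had 100.1, 99.2, 158 and 127 CPM at 2 h, against 1.52, 9.53, 2.49 and 7.50 CPM at 1 h (log2 fold change 4.40, SE 0.49, adjusted p = 2.91e-05 by edgeR). The BMP ligand *scw* had 194, 207, 119 and 188 CPM at 2 h, against 1.72, 17.4, 2.91 and 7.81 CPM at 1 h (log2 fold change 4.43, SE 0.61, adjusted p = 0.000147 by edgeR), and here replicate 3 was the lowest of 2 h and not the highest. The BMP-processing protease *tld* and the BMP-binding *tsg* rose by 4.18 and 4.14 on the log2 scale. On the ventral side *twi* and *sna*, the transcription factors of the mesoderm, were also higher. *twi* had 42.4, 42.0, 90.1 and 54.6 CPM at 2 h, against 2.30, 4.31, 2.03 and 2.75 CPM at 1 h (log2 fold change 4.18, SE 0.33, adjusted p = 2.5e-06 by edgeR), and *sna* had 44.6, 45.0, 70.1 and 53.3 CPM at 2 h, against 2.30, 6.07, 2.13 and 5.19 CPM at 1 h (log2 fold change 3.63, SE 0.34, adjusted p = 7.79e-06 by edgeR). Only *ush* and *ase* were not called.

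Of 14 other genes of the first zygotic wave 10 were called higher, with a median of 2.82, among them the Sox gene *D* (4.24), *Bro* (4.31), which encodes a partner subunit of Runt, and the proneural gene *amos* (3.97). Over all 6 lists, *dnk* included, 42 of the 74 genes tested rose by a log2 of at least 3. Of all 8342 genes tested, 169 were called higher by at least as much. With all 56 samples in the fit, 68 of 74 were called higher, and none of these genes was called lower in either. The lists hold genes known for expression at this stage and were drawn up with earlier results of these data known, so their direction is not independent evidence.

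Genes that act after the blastoderm were mostly at low levels. Of 13 Hox and segment polarity genes tested 9 were called higher, beside 10.9% of all genes, with a median of 1.35. The count was only 5 without replicate 2 of 2 h and 4 without replicate 4 of 2 h. *ptc*, the Hedgehog receptor, had 19.9, 23.2, 29.5 and 39.0 CPM at 2 h, against 4.55, 7.46, 1.82 and 2.81 CPM at 1 h (log2 fold change 2.60, SE 0.41, adjusted p = 0.0004 by edgeR). *Dfd*, a Hox gene of the head, had 1.78, 1.78, 3.71 and 2.53 CPM at 2 h, against 0.523, 0.373, 0.104 and 0.313 CPM at 1 h (log2 fold change 2.73, SE 0.46, adjusted p = 0.0006 by edgeR). The trunk Hox genes *Ubx* and *Antp* rose by 1.35 and 1.35 on the log2 scale, beside the median of 1.06 of the late-embryo type, and *Ubx* was not called without replicate 1, 2 or 4 of 2 h and *Antp* not without replicate 4. Under scaling on ribosomal protein genes only 2 of the 13 were called higher, and 13 with the factors of all 56 samples.

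The activators of the zygotic genome were mostly not called. *zld* had 638, 653, 590.2 and 662 CPM at 2 h, against 600.1, 602, 647 and 529 CPM at 1 h, and its groups overlapped (log2 fold change -0.05, SE 0.09, adjusted p = 0.666 by edgeR). *Clamp*, which opens GA-rich sites, had 466, 453, 482 and 456 CPM at 2 h, against 310.3, 359, 355 and 379 CPM at 1 h, higher in every library of 2 h but with a log2 fold change of 0.26 that was not called. *Trl*, the GAGA factor gene, and *Stat92E* were at 0.21 and 0.21. Of the 5 genes in this list only *opa* was called.

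Replicates of a time point differed in the level of the blastoderm genes. For the 64 blastoderm genes called higher, the median level in the 4 libraries of 2 h was 79.4%, 81.5%, 131% and 106% of the mean at 2 h, and in those of 1 h it was 5.81%, 11.6%, 4.20% and 7.40%. At 0 h the same genes stood at 20.0%, 15.8%, 25.1% and 3.99%, above the 1 h levels in 3 of the 4 libraries, and at 3 h at 320%, 316%, 287% and 234%. The 12 named rises were at 82.3%, 82.0%, 137% and 95.2% in the libraries of 2 h, and at 3 h they were at 98.0% and 177% in replicates 1 and 2 but at 7.85% and 6.08% in replicates 3 and 4. The libraries of 3 h were thus split for these 12 genes, while the median of the 64 blastoderm genes was above 2 h in all 4. Single genes, such as *bnk*, are in both sets. The summed cellularization genes were split as well, with 4052, 6242, 733 and 723 CPM at 3 h, against a mean of 3128 CPM at 2 h.

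**Figure D3:**
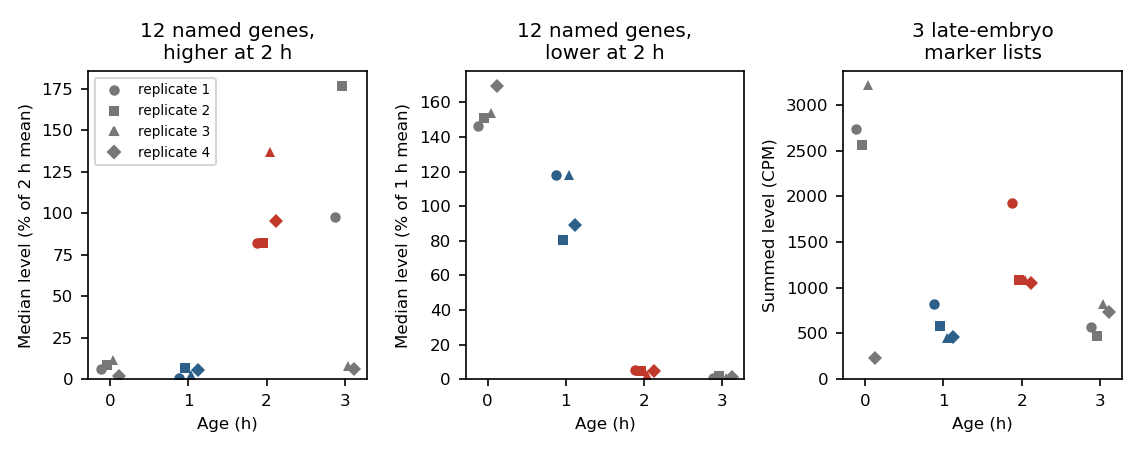
Each library from 0 to 3 h, with a symbol per replicate, as the median level of the 12 named rises in percent of their 2 h mean (left), that of the 12 named falls in percent of their 1 h mean (middle), and the summed CPM of the 3 late-embryo marker lists (right). The rises are at most 6.51% in any library of 1 h, the falls at most 5.23% in any library of 2 h, and the late-embryo sum is highest in 3 libraries of 0 h and lowest in the remaining library of 0 h.

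The 12 largest falls among well-counted genes were *CG15047*, *Cyp6a19*, *CG4476*, *yin*, *dhd*, *fs(1)N*, *Ork1*, *GstD1*, *PolD1*, *dmGlut*, *nod* and *CG9926*. They were chosen by the same rule from 1919 eligible genes, and had log2 fold changes of -5.62 to -4.45 with SE of 0.15 to 0.47 and adjusted p of 8.43e-08 to 4.67e-06 by edgeR. Relative to the mean at 1 h, the median of the 12 genes was 5.23%, 4.54%, 2.43% and 4.77% in the libraries of 2 h, against 118%, 80.6%, 118% and 89.2% in those of 1 h. At 0 h it had been 146% to 170%, and by 3 h it was at most 1.78%. The median of the 12 thus declined at each time point from 0 to 3 h. Single genes did not all follow it. *PolD1* averaged 178, 119, 5.69 and 42.4 CPM at 0, 1, 2 and 3 h, *nod* 215, 161, 7.93 and 29.5 CPM, and *CG15047* 37.5, 14.4, 0.319 and 0.485 CPM, so that these 3 had a higher mean at 3 h than at 2 h. In every setting in which they were tested, these 12 stayed called lower, which their choice by size of change made all but certain.

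Several of these mRNAs encode proteins known from the egg. *dhd* (X:5312171-5313125, plus strand), a germline thioredoxin that helps to remodel the sperm chromatin at fertilization, had 81.2, 66.3, 34.8 and 87.7 CPM at 2 h, against 2125, 1484, 2414 and 1953 CPM at 1 h (log2 fold change -5.02, SE 0.31, adjusted p = 4.97e-07 by edgeR). *fs(1)N*, an eggshell-bound protein needed to activate the Torso receptor, had 10.9, 10.8, 6.84 and 9.15 CPM at 2 h, against 262, 182, 221 and 156 CPM at 1 h (log2 fold change -4.59, SE 0.23, adjusted p = 1.41e-07 by edgeR). *nod* (X:11580772-11585750, plus strand), a kinesin-like protein that holds chromosomes on the meiotic spindle, had 8.50, 7.52, 7.31 and 8.38 CPM at 2 h, against 176, 129.6, 190.5 and 148 CPM at 1 h (log2 fold change -4.49, SE 0.15, adjusted p = 8.43e-08 by edgeR), with the lowest SE of the 12. In *dhd* and *nod* alike every library of 2 h was more than 10 times below every library of 1 h.

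The detoxifying enzymes were represented by *Cyp6a19*, a cytochrome P450, with 11.1, 5.97, 1.57 and 9.04 CPM at 2 h, against 295, 228, 347 and 251 CPM at 1 h (log2 fold change -5.48, SE 0.47, adjusted p = 4.67e-06 by edgeR), and by *GstD1*, a glutathione transferase, with 24.1, 20.4, 12.9 and 23.1 CPM at 2 h, against 469.7, 309.8, 499.8 and 411 CPM at 1 h (log2 fold change -4.53, SE 0.24, adjusted p = 1.84e-07 by edgeR). *Ork1*, a potassium leak channel, fell by 4.55 on the log2 scale, *dmGlut*, a glutamate transporter, by 4.50, and *CG4476*, *yin* and *CG9926* by 5.19, 5.05 and 4.45. *PolD1*, the catalytic subunit of DNA polymerase delta, had 6.12, 5.40, 4.46 and 6.78 CPM at 2 h, against 144, 95.7, 139.5 and 95.2 CPM at 1 h (log2 fold change -4.52, SE 0.21, adjusted p = 1.19e-07 by edgeR). *CG15047* had the lowest ratio, with 0.475, 0.402, 0.29 and 0.11 CPM at 2 h, against 17.3, 9.53, 19.8 and 11.0 CPM at 1 h, but 2 h replicate 4 was under the level of 3 counts. Replicate 3 of 2 h was the lowest of its group in 11 of the 12 genes, the same library that was highest in all 12 rises.

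Determinants of the axes and the germ plasm were lower in part. Of 24 tested 11 were called lower and 1 higher, with a median log2 fold change of -0.55. Over all genes, the background for this list and those below, 24.8% were called lower, 10.9% were called higher and the median was 0.06. In this list 9 were lower with factors of all 56 samples. *exu*, which localizes bicoid mRNA in the oocyte, had 20.5, 16.4, 12.9 and 14.6 CPM at 2 h, against 281, 217, 324 and 258 CPM at 1 h (log2 fold change -4.21, SE 0.18, adjusted p = 1e-07 by edgeR). *osk*, which founds the germ plasm, had 82.9, 74.9, 48.2 and 84.1 CPM at 2 h, against 1176, 957, 1061 and 855 CPM at 1 h (log2 fold change -3.94, SE 0.21, adjusted p = 1.77e-07 by edgeR). *Hsp83*, the Hsp90 gene whose maternal mRNA is a classical target of Smg, had 446, 439, 362 and 475 CPM at 2 h, against 3305, 2821, 3620.0 and 3070.1 CPM at 1 h (log2 fold change -3.04, SE 0.12, adjusted p = 9.17e-08 by edgeR). In these 3 genes no library of 2 h came near one of 1 h.

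Other germ plasm mRNAs fell less. *pgc*, which silences transcription in the pole cells, had 57.6, 55.2, 53.0 and 59.0 CPM at 2 h, against 240.4, 216, 264 and 271 CPM at 1 h (log2 fold change -2.28, SE 0.08, adjusted p = 8.43e-08 by edgeR). *nanos*, the posterior determinant, had 94.9, 99.9, 76.7 and 107 CPM at 2 h, against 229.6, 226, 242 and 193 CPM at 1 h (log2 fold change -1.38, SE 0.13, adjusted p = 7.59e-06 by edgeR), which was not past the threshold with the factors of all 56 samples. *gcl* was not called (-0.49). At the anterior *bcd* had 215, 225, 177 and 205.1 CPM at 2 h, against 221, 217, 178 and 163 CPM at 1 h, and its groups overlapped (log2 fold change -0.07, SE 0.13, adjusted p = 0.664 by edgeR). Of the Toll pathway that patterns the dorsal-ventral axis, the transcription factor gene *dl* fell by 3.10 and the ligand gene *spz* by 1.92, while *Tl*, *tub*, *pll* and *cact* were not called. The single gene called higher was *pip* (1.60), the sulfotransferase of the ventral eggshell, which met the definition of the late-embryo type. It was not called without replicate 1, 2 or 4 of 2 h.

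Of 24 genes that carry out the clearance of maternal mRNA 8 were called lower and none higher, with a median of -0.62, and the share called lower was near the 24.8% of all genes. This count was 4 with factors of all 56 samples and 12 with scaling on ribosomal protein genes. *png*, the kinase that triggers translation at egg activation, had 6.18, 5.69, 7.48 and 6.72 CPM at 2 h, against 50.7, 35.9, 48.2 and 46.0 CPM at 1 h (log2 fold change -2.93, SE 0.14, adjusted p = 1.2e-07 by edgeR), and its partner *gnu* fell by 1.92 while *plu*, the other subunit, was not called (-0.12). *bru1*, a translational repressor of osk mRNA in oogenesis, and *brat*, an RNA-binding repressor, fell by 2.84 and 1.84. *smg* itself had 2727, 2744, 2217 and 2701 CPM at 2 h, against 3162, 3304, 3457 and 3049 CPM at 1 h, lower in every library of 2 h but by little (log2 fold change -0.46, SE 0.09, adjusted p = 0.00217 by edgeR). The deadenylase gene *twin* fell by 1.27, though not past the threshold with factors of all 56 samples, while *Not1* and *Pop2* of the same complex were not called (-0.01 and -0.31).

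Of the piRNA pathway, which silences transposons in the germline, 8 of 19 genes were called lower and none higher, with a median of -0.69, and 5 were lower with factors of all 56 samples. *shu*, a co-chaperone in the loading of piRNAs, had 4.58, 4.88, 3.54 and 4.30 CPM at 2 h, against 59.6, 42.2, 61.0 and 45.8 CPM at 1 h (log2 fold change -3.73, SE 0.18, adjusted p = 1.16e-07 by edgeR). *del*, a member of the nuclear complex that licenses piRNA clusters, and *tapas* fell by 3.33 and 2.58. *piwi*, the nuclear effector, had 103, 102, 83.0 and 99.2 CPM at 2 h, against 224, 223, 259 and 226 CPM at 1 h (log2 fold change -1.41, SE 0.10, adjusted p = 1.01e-06 by edgeR), a fall that was not past the threshold with factors of all 56 samples. Its cytoplasmic relatives *aub* and *AGO3* were not called, at 0.10 and 0.26.

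Of 34 mitotic and checkpoint genes 15 were called lower and none higher, with a median of -0.46, and 10 were lower with factors of all 56 samples. The 2 largest falls of the list were those of *Mos* and *cort*. *Mos*, whose vertebrate counterpart is the kinase of the meiotic arrest, had 4.40, 4.08, 2.15 and 4.46 CPM at 2 h, against 75.4, 57.5, 87.5 and 73.1 CPM at 1 h (log2 fold change -4.42, SE 0.23, adjusted p = 1.77e-07 by edgeR). *cort*, an activator of the anaphase-promoting complex in female meiosis, and *mtrm*, an inhibitor of Polo in meiosis, fell by 4.14 and 3.15. The checkpoint kinase gene *mei-41*, the fly ATR, fell by 3.56, and the CDK inhibitor gene *dap* by 3.02.

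Among the 19 genes of this list that were not called were several that drive the cell cycle. *CycB* had 3783, 3827, 3501 and 3668 CPM at 2 h, against 5032, 5070.5, 5138 and 5305 CPM at 1 h, lower in every library of 2 h but not called (log2 fold change -0.61, SE 0.06, adjusted p = 1.06e-05 by edgeR). Of the 2 Cdc25 phosphatases, which drive entry into mitosis, *stg* had 219, 237, 202 and 243 CPM at 2 h, against 581, 555, 644 and 581 CPM at 1 h (log2 fold change -1.53, SE 0.09, adjusted p = 2.93e-07 by edgeR), and *twe* was at 0.21 and not called. The fall of *stg* was not past the threshold with factors of all 56 samples. *Cdk1*, *CycA* and *polo* were not called, at 0.41, -0.30 and 0.06.

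DNA replication genes had the second lowest median of all lists, -1.54. Of 25 tested 15 were called lower, none higher, and 13 were lower with factors of all 56 samples. *Cdc45* of the replicative helicase had 15.5, 16.0, 10.5 and 15.9 CPM at 2 h, against 227, 173, 225 and 193 CPM at 1 h (log2 fold change -3.96, SE 0.17, adjusted p = 9.74e-08 by edgeR). The origin recognition genes *Orc2* and *Orc4* fell by 3.91 and 3.68. By contrast *Mcm7*, also of the helicase, was at 0.42, and *PCNA*, the sliding clamp, had 189, 196, 252 and 203 CPM at 2 h, against 328, 279.8, 338 and 367 CPM at 1 h (log2 fold change -0.78), below the threshold. Under scaling on ribosomal protein genes *PCNA* was called lower.

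Glycolysis had the lowest median of all lists, -1.83, and 9 of 12 genes tested were called lower. The fall was uneven along the pathway. *Tpi* (triose phosphate isomerase) had 8.68, 6.55, 7.13 and 7.22 CPM at 2 h, against 169, 89.5, 149.8 and 125 CPM at 1 h (log2 fold change -4.32, SE 0.21, adjusted p = 1.43e-07 by edgeR). *Gapdh2* (glyceraldehyde-3-phosphate dehydrogenase) had 68.6, 55.7, 47.0 and 57.5 CPM at 2 h, against 949, 652, 942 and 843 CPM at 1 h (log2 fold change -4.03, SE 0.17, adjusted p = 9.17e-08 by edgeR). *PyK* (pyruvate kinase), *Pgi* (glucose-6-phosphate isomerase) and *Pgk* (phosphoglycerate kinase) fell by 3.15, 3.03 and 2.63. In *Tpi* the lowest library of 1 h was still about 10 times above the highest of 2 h.

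Other steps changed less. *Pglym78* (phosphoglycerate mutase), *Eno* (enolase) and *Pfk* (phosphofructokinase) fell by 1.52, 1.49 and 1.44, and *Hex-A* (hexokinase) was not called (-0.81). *Ald1* (aldolase) had 341, 325, 348 and 331 CPM at 2 h, against 288, 309.9, 314 and 342 CPM at 1 h, and its groups overlapped (log2 fold change -0.04, SE 0.06, adjusted p = 0.604 by edgeR). The one gene called higher was *Ldh* (lactate dehydrogenase), which had 14.4, 11.7, 13.4 and 9.86 CPM at 2 h, against 3.55, 4.74, 2.34 and 5.25 CPM at 1 h (log2 fold change 1.50, SE 0.25, adjusted p = 0.000593 by edgeR). *Ldh* met the definition of the late-embryo type, as did the falling *Tpi*, *Gapdh1* and *Gapdh2*. Reads of the near-identical *Gapdh1* and *Gapdh2* may be shared between them. With factors of all 56 samples 6 genes of the list were called lower, without *Pglym78*, *Eno* and *Pfk*.

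**Figure D4:**
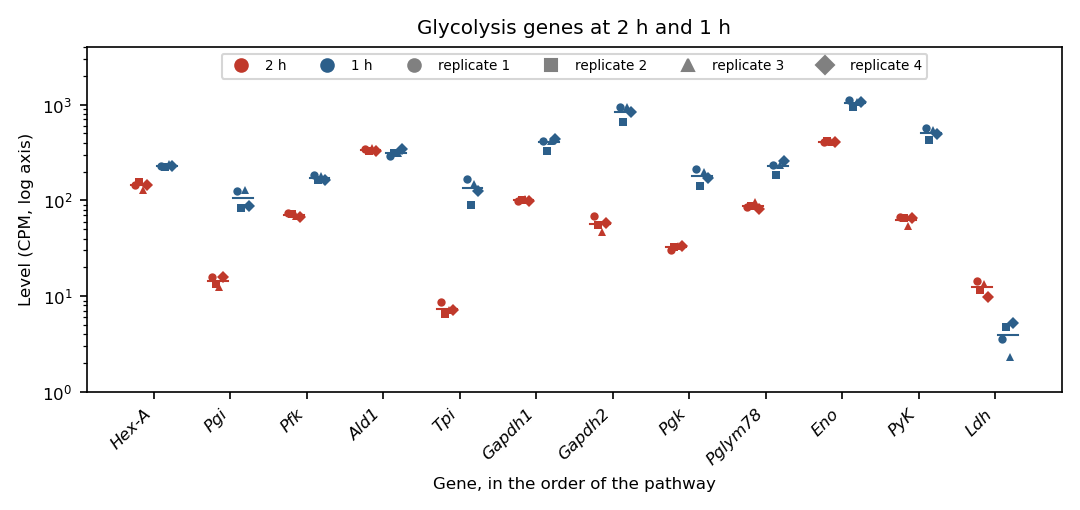
Levels in CPM, on a log axis, of 12 glycolysis genes in the order of the pathway, with 2 h to the left of 1 h, a symbol per replicate and a line at the mean of 4. The 2 time points lie on top of each other for *Ald1*, are furthest apart for *Tpi* and *Gapdh2*, and are in the reverse order for *Ldh*.

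Of 10 genes of sugar storage and the pentose phosphate pathway 6 were called lower and none higher, and 3 were lower with factors of all 56 samples. *Pgd*, the second oxidative enzyme of the pentose phosphate pathway, fell by 3.23, and *Zw*, the first, by 1.97. Glycogen phosphorylase (*Glyp*) fell by 1.32, and glycogen synthase (*Glys*) was not called (0.30). Of 13 genes of the TCA cycle 3 were called lower, a share near the 24.8% of all genes, or 2 with factors of all 56 samples. They were *Mdh2*, *Idh* and *SdhA* (-2.74, -2.25 and -1.40), and the median of the list was -0.24 beside 0.06 over all genes.

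Of 64 nuclear genes of the respiratory chain 6 were called lower and none higher, with a median of 0.15, and 2 were lower with factors of all 56 samples. Mitochondrial ribosomal proteins had 16 of 70 genes called lower, a share near the 24.8% of all genes, and a median of -0.29, with 10 lower under factors of all 56 and 25 under scaling on ribosomal protein genes. Of 14 mitochondrially encoded genes none was called. For the large ribosomal RNA *mt:lrRNA*, the most abundant transcript at 2 h, the level was 83368, 74646, 40971 and 74140.2 CPM at 2 h, against 50904, 57882, 42167 and 24196 CPM at 1 h, and the range within 2 h was wider than the difference in means (log2 fold change 0.49, adjusted p = 0.169 by edgeR). With factors of all 56 samples it was called higher, as were 2 other genes of this list.

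None of 81 cytoplasmic ribosomal protein genes was called in either direction, and their median was 0.36. Their summed level was 106839 CPM in replicate 3 of 2 h and 68367 to 74433 CPM in the 3 other libraries of 2 h. With all 56 samples in the fit 6 of 86 were called higher. Of 32 genes of the spliceosome and SR proteins, which splice pre-mRNA, 1 was called lower and none higher, with a median of 0.32, while 4 were called higher with factors of all 56 samples. Translation factors had 10 of 41 genes called lower, a share near the 24.8% of all genes, and 1 called higher, *eEF1alpha2*. The falls included the cap-binding *eIF4E1* (-1.70) and the eIF2 subunits *eIF2beta* and *eIF2gamma* (-2.10 and -1.72). Of 13 subunits of eIF3 tested, a group picked after the values were seen, *eIF3j* fell by 2.30 and the other 12 lay between 0.17 for *eIF3b* and 0.46 for *eIF3m*.

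Of 32 proteasome genes tested 12 were called lower and none higher, and all 12 belonged to the regulatory particle that unfolds the substrates. The split by particle was made after the values were seen. The 19 genes of the regulatory particle had a median of -1.31, and the 13 genes of the core particle had a median of 0.35 with a range of -0.01 to 0.46. *Rpn11*, the deubiquitinase of the lid, had 23.6, 25.4, 25.8 and 26.5 CPM at 2 h, against 189, 144, 193 and 178 CPM at 1 h (log2 fold change -2.94, SE 0.11, adjusted p = 8.43e-08 by edgeR). *Prosalpha6* of the core had 463, 468, 624 and 451 CPM at 2 h, against 298, 332, 317 and 428 CPM at 1 h, higher in every library of 2 h but by less than the call threshold (log2 fold change 0.41, SE 0.13, adjusted p = 0.0193 by edgeR). With factors of all 56 samples 8 regulatory genes were lower.

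Heat shock proteins and chaperones were called lower in 7 of 12 cases, with none higher and a median of -1.37. *Hsp26*, a small heat shock protein stored in the egg, had 53.2, 48.4, 41.3 and 60.0 CPM at 2 h, against 819.8, 606, 929 and 792 CPM at 1 h (log2 fold change -4.09, SE 0.17, adjusted p = 9.24e-08 by edgeR), and the Hsp90 co-chaperone *Stip1* fell by 2.95. The abundant constitutive *Hsc70-4* was at -0.01. The maternal tubulins *alphaTub67C* and *gammaTub37C* were the only ones of 13 tubulin and actin genes that were called lower. *alphaTub67C* had 27.7, 28.7, 18.7 and 29.0 CPM at 2 h, against 492, 329, 492 and 388 CPM at 1 h (log2 fold change -4.17, SE 0.20, adjusted p = 1.27e-07 by edgeR), and *gammaTub37C* fell by 4.11, while the general isotype *alphaTub84B*, whose reads may be shared with *alphaTub84D*, was at 0.49 and was called higher only with factors of all 56 samples or all 56 in the fit. The 4 members called higher were *alphaTub85E*, *betaTub97EF*, *Act57B* and *Act87E*, and the first 3 met the definition of the late-embryo type. *Act57B*, a muscle actin, had 404, 249, 279 and 209 CPM at 2 h, against 147, 120.4, 76.1 and 116 CPM at 1 h (log2 fold change 1.17, SE 0.24, adjusted p = 0.00209 by edgeR), and was not called without replicate 1 of 2 h.

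Of 28 genes of chromatin proteins and histone variants 9 were called lower and 2 higher, near the 24.8% and 10.9% of all genes, with a median of 0.04, and 3 were lower with factors of all 56 samples. Among the falls were *Pc* (log2 fold change -2.67, SE 0.12, adjusted p = 1.04e-07 by edgeR) and *E(z)* (log2 fold change -2.57, SE 0.14, adjusted p = 1.87e-07 by edgeR), which bind and write the repressive mark on histone H3, as well as *Su(z)12* (-2.28), while *ph-p* of the same repressive system was called higher (1.39). The embryonic linker histone gene *BigH1* was just past the threshold (-1.03) and was not called under 9 of 19 alternatives, and the replacement histone genes *His2Av* and *His3.3B* were not called (0.40 and 0.44).

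Of 7 dosage compensation genes tested 2 were called higher and none lower. *msl-2*, the limiting subunit of the complex on the male X, had 23.9, 23.1, 41.1 and 34.7 CPM at 2 h, against 3.45, 6.55, 4.05 and 3.50 CPM at 1 h (log2 fold change 2.66, SE 0.28, adjusted p = 1.87e-05 by edgeR). The noncoding RNA *roX1* (X:3857230-3862697, minus strand), which acts in the same complex, had 192, 190.1, 228 and 327 CPM at 2 h, against 21.9, 40.1, 12.3 and 11.5 CPM at 1 h (log2 fold change 3.297, SE 0.42, adjusted p = 7.94e-05 by edgeR). Both were higher in every library of 2 h, while *roX2* averaged 0.492 CPM at 2 h and 0.279 CPM at 1 h and did not pass the filter. The other 5 genes tested were not called, among them *mle* and *mof* (0.22 and 0.09).

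Of 145 noncoding RNA genes tested 29 were called higher and 12 lower, beside 10.9% and 24.8% of all genes. *CR43887* (3L:11693135-11693661, plus strand), a long noncoding RNA, rose the most among those that averaged 100 counts or more, with 50.1, 58.5, 92.3 and 90.8 CPM at 2 h, against 2.35, 4.69, 2.86 and 4.19 CPM at 1 h (log2 fold change 4.24, SE 0.28, adjusted p = 7.84e-07 by edgeR). The heat-inducible nuclear RNA *Hsromega* rose by 2.04, and the hairpin RNA precursor *CR33940* fell by 1.63.

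**Figure D5:**
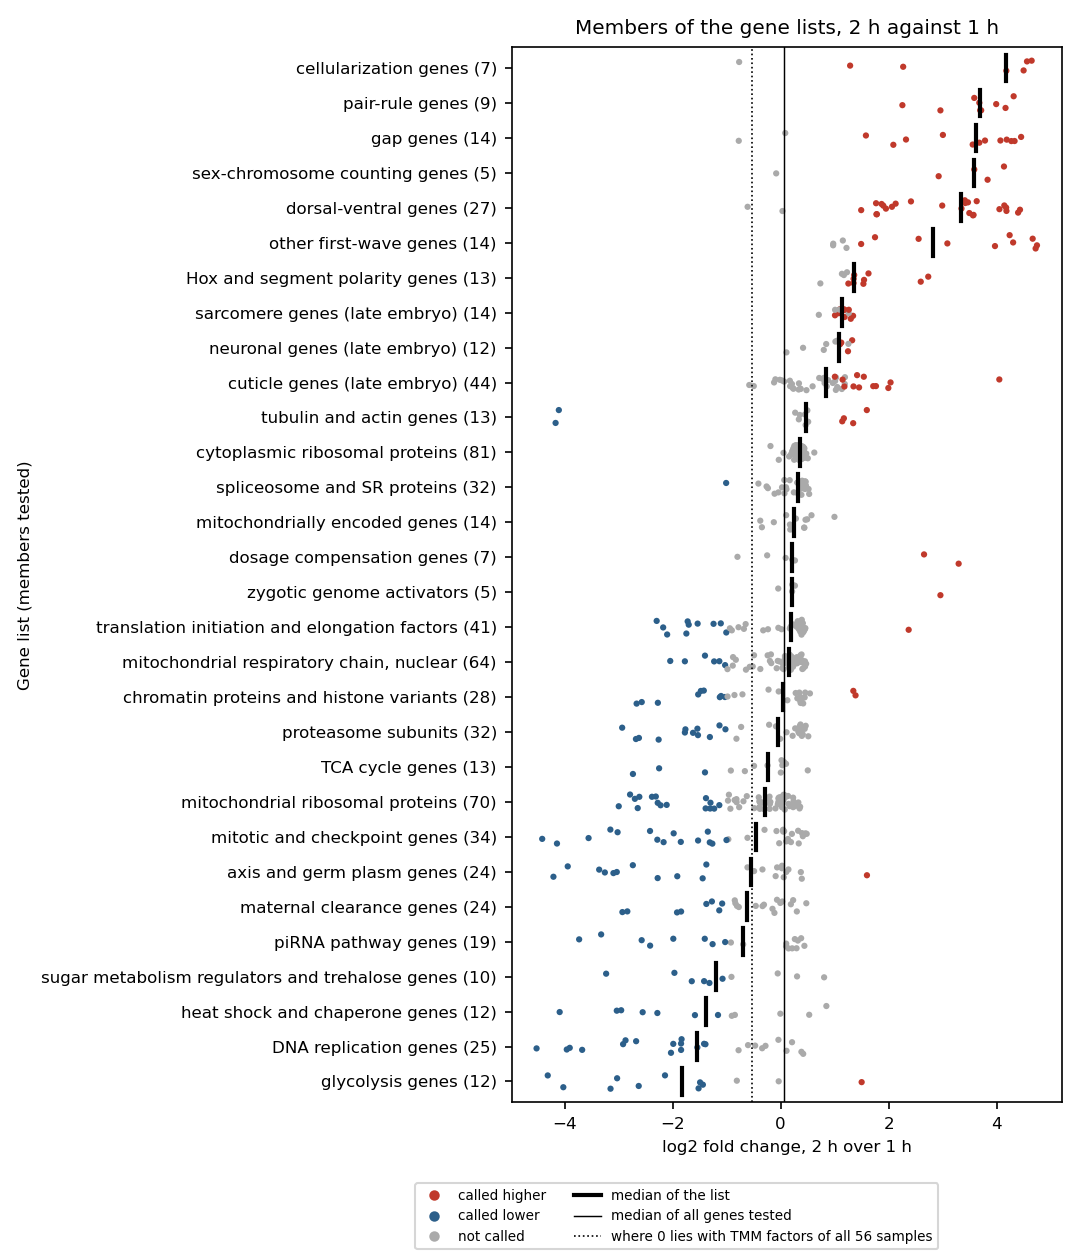
Log2 fold changes, 2 h over 1 h, of the members of each list that were tested, with the lists ordered by their median (thick bars) and members coloured by their call, beside the median of all genes tested (thin line, 0.06) and the place of 0 with normalization factors of all 56 samples (dotted line). The 6 lists of blastoderm genes stand at the top with medians of 2.82 to 4.18, and glycolysis and DNA replication at the bottom with -1.83 and -1.54.

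The genes that rose most were short and often without introns, as annotated in Ensembl 115. Of the 152 protein-coding genes called higher by a log2 of at least 3, 57 (37.5%) had no intron, against 683 of 7982 (8.56%) among all protein-coding genes tested. Their median exon length was 1444.5 bases, against 2217 bases over all genes. Of the 12 named rises 10 had no intron, and *Elba1* and *dunk* had 1. For the 288 protein-coding genes called lower by as much, 12.2% had no intron and the median exon length was 2023.5 bases. On the X chromosome lay 13.8% of the strong rises, 24.3% of the strong falls and 17.0% of all genes tested. These shares are descriptions, and no test was made of them.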

How the data were processed

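RNA-Seq of 56 whole-embryo samples, 4 replicates at each of 14 time points, was used. Per the labels and the study's methods, the authors selected polyA RNA, prepared stranded libraries and sequenced single-end reads. They mapped them to BDGP6 with STAR 2.4.0h and counted them per gene with HTSeq 0.6.1p1 in union mode on Ensembl 79; bcl2fastq 1.8.4 and SAMtools 1.2 are also named in the submitters' processing notes. What the authors deposited is the raw count of each gene ID in each sample, not normalized. Whether strand was used in counting is not given in the sources used here. Summary lines of each file that name no gene were left out of totals and tests; reads on no gene were 0.586% to 0.631% at 2 h and 0.425% to 0.485% at 1 h.

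Of 17558 gene IDs, 17252 were found in Ensembl 115 (BDGP6), which gave symbols, positions and exons, 306 were not found, and 4423 had no count in the 8 samples of 2 h and 1 h. Those samples, grouped by the time in their labels, were filtered with filterByExpr, scaled by TMM and tested with the quasi-likelihood test of edgeR 4.0.16 in R 4.3.3, with a mean per time point and Benjamini-Hochberg adjustment over all genes tested. Calls needed an adjusted p below 0.05 and a change of 1 or more on the log2 scale. Levels are printed as CPM of the library total, while fold changes carry the TMM factors. The test gives no SE, so each SE was derived as the absolute log2 fold change divided by the square root of its F statistic. In a self-test on simulated counts, 193 of 200 genes changed 4-fold were recovered (96.5%) with 3 other calls among 8223 genes. These genes were changed equally often up and down, and no library was set apart. The self-test therefore cannot show errors from scaling or from single libraries. Depth per sample is given with the results.

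The 12 highest and 12 lowest log2 fold changes among called genes that averaged 100 counts or more and whose replicates did not overlap are named, besides members of the gene lists. The members and lists were chosen with earlier results of these data known. Of the listed symbols, 13 were not matched and are not analysed here. The alternatives were DESeq2 1.42.0, its size factors, library totals, factors or fits of all 56 samples, no filter, no mitochondrially encoded genes, a replicate block, each replicate left out, and 2 added after seeing the data, scaling on ribosomal protein genes and leaving out genes of the late-embryo type. Tables and figures were made in Python 3.11.15 with numpy 2.4.6, pandas 2.3.3, scipy 1.17.1 and matplotlib 3.10.9. A promoter motif description was not run.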

Additional observations from a re-analysis of the deposited data

Results flagged for a closer look

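Of 380 groups of 4 values checked over 190 measures, 37 held a sample whose gap to its neighbour was large for the range of the group. Chance alone gives about 1 in 20 groups. Replicate 3 of 2 h was the sample in 25 of them. Its levels were above those of the 3 other libraries for *Elba1* (625 CPM), *Elba3* (697 CPM), *CG43184* (202 CPM), *CG14014* (467 CPM), *Bro* (246 CPM), *Cdk1* (473 CPM), *Glys* (834 CPM), *alphaTub84B* (4704 CPM), *His2Av* (1306 CPM), *His3.3B* (1514 CPM) and the proteasome core gene *Prosalpha6* (624 CPM). They were below the other libraries for *smg* (2217 CPM), *Mos* (2.15 CPM), *Cdc45* (10.5 CPM), *alphaTub67C* (18.7 CPM), *twin* (188 CPM), *Not1* (1034 CPM), *del* (16.99 CPM) and *mt:CoI* (2166 CPM). Summed over lists, the same library was above its partners for cytoplasmic ribosomal proteins (106839 CPM), proteasome subunits (9798 CPM), the nuclear respiratory chain (9586 CPM), mitochondrial ribosomal proteins (2682 CPM), and tubulin and actin genes (13353 CPM), and below them for axis and germ plasm genes (7313 CPM). Replicate 2 of 2 h stood apart for *Eno* (422 CPM, others 403 to 406 CPM).

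At 1 h, replicate 1 stood apart for *Stat92E* (429 CPM, others 494 to 497 CPM), replicate 2 for *hkb* (2.45 CPM, others 0.571 to 0.784 CPM), and replicate 3 for *piwi* (259 CPM, others 223 to 226 CPM), *dap* (272 CPM) and the summed maternal clearance genes (18232 CPM). Replicate 4 of 1 h had the highest level of *alphaTub84B* (2891 CPM) and of the summed tubulin and actin genes (9445 CPM), the lowest of *Not1* (968 CPM), the fewest counts on genes (15995007) and the lowest share of reads on no gene (0.425%). The summed level of the late-embryo markers in replicate 1 of 2 h was 1927 CPM, against 1047 to 1088 CPM in the other libraries of 2 h. Outside the counts on genes, the share of reads on no gene averaged 0.603% at 2 h, above the 0.425% to 0.485% of the libraries of 1 h, with a p of 0.0286 in an exact permutation test, two-sided and the smallest that 4 against 4 allows.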

How the results depend on the processing

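Against 912 genes called higher and 2070 lower, the count of higher genes became 1713 with TMM factors of all 56 samples, 2712 with all 56 in the fit, 1380 without a filter on low counts, 358 with scaling on ribosomal protein genes and 569 without genes of the late-embryo type. Leaving out 1 replicate gave 596 to 1380 higher and 1891 to 2107 lower. The lowest count was that without 2 h replicate 1, and the highest that without 1 h replicate 2. DESeq2 called 1159 higher and 1928 lower. With the replicate number as a block 1181 were higher and 2074 lower. Samples of the same number did not clearly deviate together, with correlations of -0.26 to 0.49 of which 3 of 4 were over 0.1, and 2 of 4 pairs best with their own number, so the numbers were not taken as pairs.

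The 24 named genes kept direction and call in all 455 alternative values. They were picked from these same data for changes far beyond the threshold, so this outcome was all but fixed in advance. For 129 other genes 42 of 2438 values were no longer past the threshold, 9 of them of *BigH1*, 8 were newly past it, among them *PCNA* and *cad*, and none of those called was reversed. Of 1178 counts of list members, 105 moved. The late-embryo ratio of 2.22 was 2.04 for cuticle genes alone, with an exact p of 0.0571, and 1.86 to 2.59 with a replicate left out. Genes near the floor of 3 counts cannot be compared at this depth, and 604 of the 912 genes called higher had a mean under 100 counts.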

Other observations

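At 0 h, 3 of the 4 libraries held more RNA of the late-embryo markers than any library of 2 h or 1 h, with sums of 2736, 2559 and 3218 CPM, while replicate 4 of 0 h held 234 CPM, the least of the 16 libraries from 0 to 3 h. The 64 blastoderm genes called higher at 2 h followed the same order at 0 h, with medians of 20.0%, 15.8% and 25.1% of their 2 h mean in the first 3 replicates and 3.99% in replicate 4.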
